A study of Homo sapiens with 24 samples.

Results

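The translation initiation factor genes were taken as the protein-coding genes of the GENCODE hg19 annotation whose symbol begins with EIF1 to EIF6, which gave 56 of 19820 genes. Their promoters were followed in 11 Flag ChIP-seq libraries of MCF-10A–ER-Src cells, a non-transformed human mammary epithelial line carrying a v-Src–estrogen receptor fusion that tamoxifen switches on. Every line also carried a retroviral construct for S100A8 or S100A9 with a single C-terminal Flag tag, selected with hygromycin as a stable line and made at levels near those of the endogenous protein before tamoxifen. S100A8 and S100A9 are small calcium-binding proteins best known as a secreted cytokine. Cells were fixed with a mix of protein cross-linkers before formaldehyde, a fixation used for factors that reach DNA through other proteins. Cells received 1 µM 4-hydroxytamoxifen (TAM) for 24 hours, which sets off transformation, or ethanol vehicle (EtOH). There were 2 libraries for S100A8 EtOH and 3 each for S100A8 TAM, S100A9 EtOH and S100A9 TAM, all described as biological replicates. The comparisons ask whether S100A8 and S100A9 occupied the promoters of these genes, whether occupancy differed between EtOH and TAM, and whether the 2 proteins differed.

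Translation initiation begins when eIF2, loaded with GTP and the initiator tRNA, joins the small ribosomal subunit together with eIF1, eIF1A, eIF3 and eIF5. The eIF4 group brings this complex to the mRNA: eIF4E binds the cap, eIF4G is the scaffold, and eIF4A is a helicase helped by eIF4B and eIF4H. The complex scans to the start codon, eIF5B joins the large subunit, and eIF2 is recharged by the exchange factor eIF2B, a step that the eIF2-alpha kinases block under stress. The 4E-binding proteins hold eIF4E away from eIF4G and are released from it through mTOR signalling. A few genes carry the EIF name for historical reasons, among them EIF4A3, a helicase of the exon junction complex, and EIF5A, which acts mainly in elongation.

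A promoter was scored as bound in a library when a deposited peak with −log10 q of at least 7 (q at or below 1e-07) had its summit within 1500 bp upstream to 250 bp downstream of a transcription start site (TSS) of the gene. The libraries held 9578 to 34653 deposited peaks in EtOH and 53439 to 109500 in TAM, of which 1885 to 4642 and 21546 to 40779 passed this q value. The EtOH and TAM libraries thus differed in number of peaks before any gene was considered. Read depth is unknown here, because the peak lists carry no read totals, and its part in the results was not tested. Promoter peaks were also read at cell type markers, as a check of the line and not as a measure of expression. Of 8 basal mammary epithelial markers 6 were bound in at least 2 TAM replicates of one protein, as were 48.3% of all genes. KRT5 was bound in 5 TAM libraries and TP63 in 0. In EtOH 1 of the 8 was bound in at least 2 replicates of one protein, beside 8.44% of all genes. COL1A1 was the 1 bound gene of 4 fibroblast markers, and 0 of 4 leukocyte and 0 of 2 endothelial markers were bound in any library. PECAM1, also planned as an endothelial marker, was not matched in the annotation and was not read.

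The sequences under the strongest peaks are shown for the 6 members that carry the contrast between constant and TAM-linked occupancy. EIF2D, EIF2B3, EIF2B4, EIF3J and EIF4E2 were bound in at least 4 of 5 EtOH libraries, and EIF4A3 in every TAM library but no EtOH library. Each line runs 5′ to 3′ on the strand of the gene, in the hg19 build, up to 50 bp on either side of the summit of that gene's strongest promoter peak, and stops where an annotated untranslated region (UTR) begins. Capitals mark a match on either strand to CGGAAG (ETS), CCCCGCCC (KLF/SP1), TGACGTCA (CREB), TGACTCA (AP-1), CACGTG (E-box) or CCAAT (NFY).
EIF2D (chr1:206785819-206785914, minus strand): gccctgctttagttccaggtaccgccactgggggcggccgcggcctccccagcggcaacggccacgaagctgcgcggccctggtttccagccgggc
EIF2B3 (chr1:45452319-45452348, minus strand): cttctcttctccatgggtctgctctgcgcg
EIF2B4 (chr2:27593270-27593362, minus strand): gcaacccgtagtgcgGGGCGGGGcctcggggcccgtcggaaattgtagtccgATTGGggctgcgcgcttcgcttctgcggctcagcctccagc
EIF3J (chr15:44829325-44829354, plus strand): TGACTCAcctccgccgtgctaactcctcgc
EIF4E2 (chr2:233415268-233415359, plus strand): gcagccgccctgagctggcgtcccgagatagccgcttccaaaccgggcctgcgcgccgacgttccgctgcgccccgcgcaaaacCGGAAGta
EIF4A3 (chr17:78120951-78121011, minus strand): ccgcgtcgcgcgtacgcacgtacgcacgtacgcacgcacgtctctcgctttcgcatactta

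The EIF2D summit lay 46 bp upstream of the nearest TSS, that of EIF2B4 115 bp, that of EIF4E2 60 bp and that of EIF4A3 11 bp. All 4 lay outside annotated protein-coding transcripts, and other transcripts were not looked at. The EIF3J summit lay 5 bp upstream of one TSS and inside the first exon, in the UTR, of another transcript, and the EIF2B3 summit lay 60 bp downstream of a TSS in the UTR of its first exon, so that 30 bases are given for each. The EIF3J line opens with an AP-1 motif, the EIF4E2 line holds an ETS motif near its end, and the EIF2B4 line holds a KLF/SP1 and an NFY motif. None of the 6 motifs occurred in the lines for EIF2D, EIF2B3 and EIF4A3. Within 100 bp of the same summits, beyond the printed bases, EIF2B3 had KLF/SP1 and NFY motifs and EIF4A3 an E-box, while EIF2D had none. Over the 50 members bound in any library, the ETS letters occurred within 100 bp of the strongest summit in 19, or 38.0%, beside 27.8% of the 12103 bound genes and 18.0% of windows of 201 bp set at the same typical distance from the 5′ end of every protein-coding gene. The ETS-bearing members ran across the roles and included EIF1, EIF2B1, EIF2B2, EIF2B5, EIF3G, EIF3L, EIF3M, EIF4A1, EIF4B, EIF4E2 and EIF6. AP-1 was found at 4 members (EIF3J, EIF4E, EIF4G1 and EIF5), 8.0% beside 5.43% of bound genes and 2.89% of all windows. KLF/SP1 was found at 26.0% of members and 24.9% of bound genes, against 24.8% of all windows. The E-box was found at 12.0% against 7.55% and 6.48%, NFY at 20.0% against 21.4% and 28.5%, and CREB at 0 members against 2.64% and 2.08%. At 13 members no motif of the 6 was found, EIF2D among them. These are matches of letters, were not tested, and say nothing of which factor was present. Median GC content of the windows was 65.4% for members, 67.2% for bound genes and 62.2% for all genes.

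Initiation factor promoters were bound about 3 times as often in TAM as in EtOH, and in every library more often than protein-coding promoters at large. In the S100A8 EtOH libraries 17.9% and 26.8% of the 56 promoters were bound, and in the S100A9 EtOH libraries 21.4%, 16.1% and 25.0%. In the S100A8 TAM libraries the shares were 64.3%, 62.5% and 66.1%, and in the S100A9 TAM libraries 62.5%, 66.1% and 71.4%. The highest EtOH library was below the lowest TAM library, and the proteins overlapped within each treatment. EtOH libraries averaged 21.4% ± 4.55 (SD, n = 5), and TAM libraries averaged 65.5% ± 3.32 (SD, n = 6). For all protein-coding genes the means were 10.1% ± 2.49 and 39.0% ± 5.42.

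**Figure D1:**
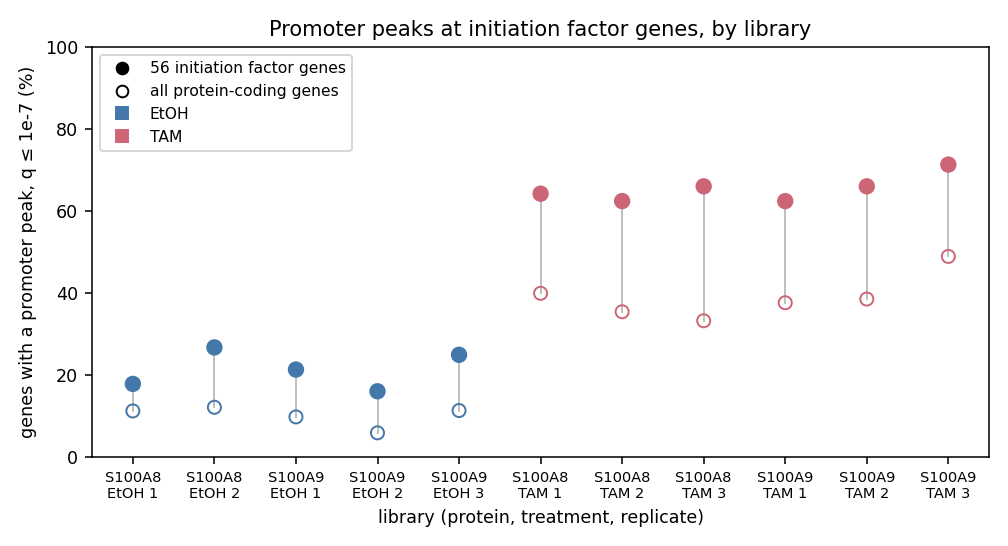
Share of genes with a promoter peak at q at or below 1e-07 (y axis, %) in each of the 11 libraries (x axis), for the 56 initiation factor genes (filled circles) and all protein-coding genes (open circles), joined by a line per library. The filled circle was above the open one in every library, and the TAM circles lie between 62.5% and 71.4% for members against 16.1% to 26.8% in EtOH.

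With treatment permuted within each protein, the TAM minus EtOH difference averaged over the proteins was 43.9 percentage points (p = 0.01 by a two-sided exact permutation test with 200 arrangements, which cannot give less, and 0.06 after Benjamini-Hochberg adjustment over the 6 comparisons of shares). It was 42.0 points for S100A8 (exact permutation p = 0.2, the smallest possible with 2 against 3 libraries) and 45.8 points for S100A9 (exact permutation p = 0.1, the smallest possible with 3 against 3). The difference was not kept when each library was reduced to its 1885 strongest peaks, the number in the smallest library. Then 12.5% to 16.1% of the members were bound in EtOH libraries and 10.7% to 16.1% in TAM libraries, a difference of -1.04 points (exact permutation p = 0.4), made of 1.49 points for S100A8 and -3.57 points for S100A9. With every deposited peak it was 28.3 points (exact permutation p = 0.01), of which S100A8 gave 18.5 and S100A9 38.1. A fixed number of peaks takes out, by construction, any gain spread over all sites, so it cannot show whether occupancy rose. The members' gain in TAM can therefore not be told apart from the larger number of peaks in the TAM lists. The study reported higher binding in TAM at essentially all sites, and what made the TAM lists longer was not tested here.

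**Figure D2:**
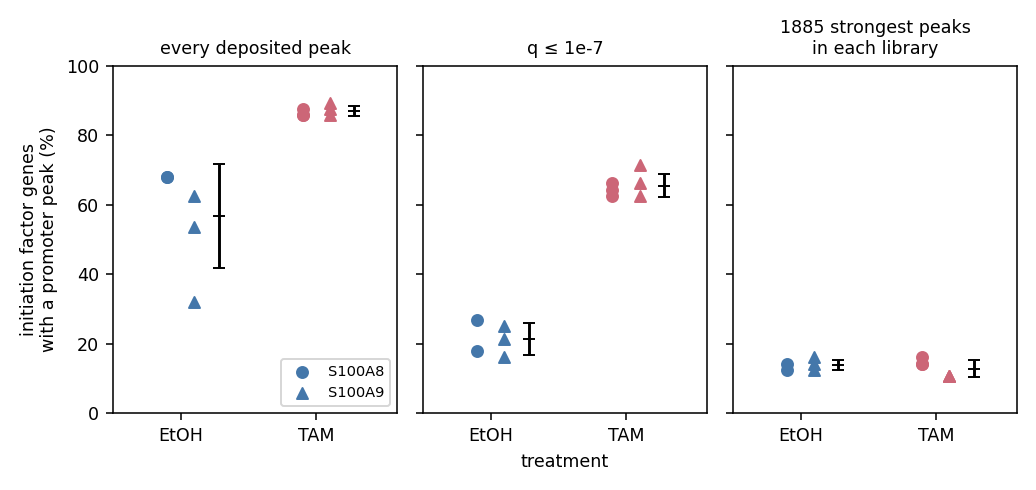
Share of the 56 initiation factor genes with a promoter peak (y axis, %) by treatment (x axis) when every deposited peak counts, when peaks at q at or below 1e-07 count, and when the 1885 strongest peaks of each library count. Circles are S100A8 and triangles S100A9 libraries, and black bars give the mean and SD of 5 EtOH or 6 TAM libraries. The treatments separate in the left and middle panels and overlap in the right one.

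Relative to all genes, the members stood higher in EtOH than in TAM in the point estimate. The member share was 2.17 times the share of all genes in EtOH (1.58 to 2.7 over the libraries) and 1.7 times in TAM (1.46 to 1.98). The log2 ratio differed by -0.307, TAM minus EtOH, which did not pass the test (exact permutation p = 0.09). It passed without S100A8 EtOH replicate 1 (-0.427, exact permutation p = 0.025) and under 3 other ways of scoring promoters, but not when a summit was given to its nearest TSS only (-0.197, exact permutation p = 0.15), and with equal numbers of peaks its sign turned (0.134, exact permutation p = 0.41).

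S100A8 and S100A9 were not separated in the share of members bound. S100A9 minus S100A8 was 2.38 points in TAM (exact permutation p = 0.7) and -1.49 points in EtOH (exact permutation p = 0.8), designs in which p cannot go below 0.1 and 0.2. The TAM minus EtOH difference was 3.87 points larger for S100A9 than for S100A8 (exact permutation of the protein labels within treatment, p = 0.48). With equal numbers of peaks the TAM difference between the proteins was -4.17 points, and without S100A8 EtOH replicate 2 or S100A9 EtOH replicate 2 the EtOH difference was 2.98 or 0.893 points, so neither had a stable sign. With every deposited peak the EtOH difference was -18.5 points, from 67.9% in both S100A8 libraries against 53.6%, 32.1% and 62.5% in the S100A9 libraries. These do not overlap, and their exact permutation p of 0.2 is the smallest the design allows.

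A replicate rule modelled on the study's confident peaks asked that a promoter be bound in at least 2 replicates of one protein. It was applied to genes and is looser than a rule for single peaks, because the peaks of the replicates did not need to overlap. By this rule 43 of the 56 promoters (76.8%) were bound in TAM and 13 (23.2%) in EtOH. Of all protein-coding genes 48.3% and 8.44% were. In all 6 TAM libraries 20 members were bound, against 13.9% of all genes. At least 1 EtOH library bound 29 members (51.8%), against 29.0%, and no member was bound in EtOH libraries only (0.429% of all genes). The members were thus bound more often than the background under each of these rules, EtOH-only binding apart.

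**Figure D3:**
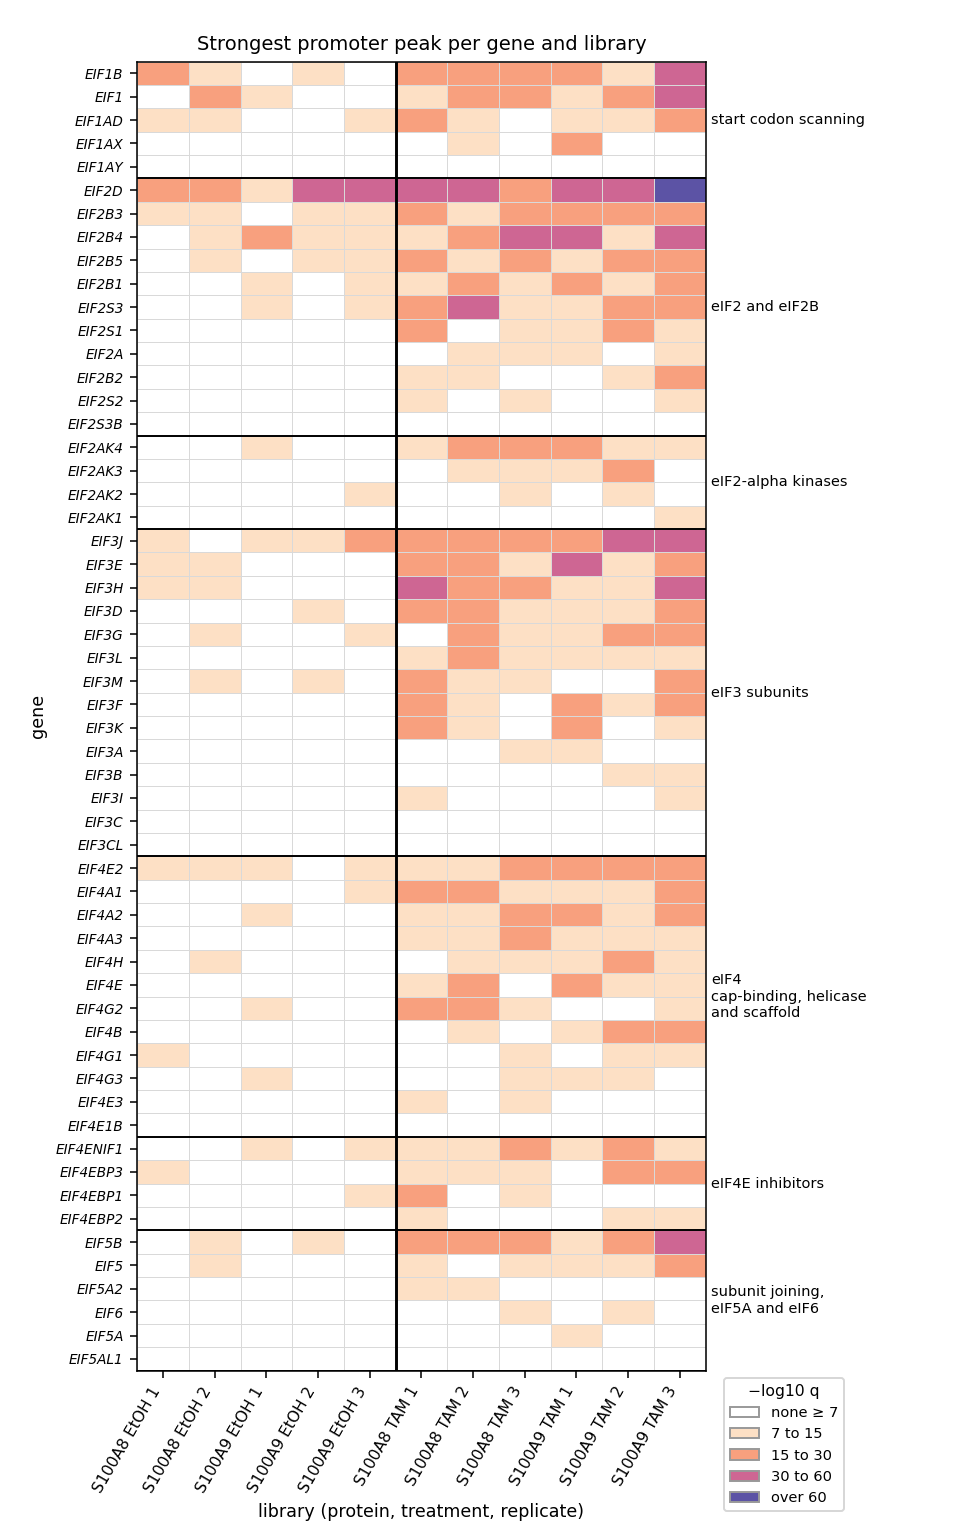
Highest −log10 q of a promoter peak (colour) for each of the 56 genes (rows, grouped by role and ordered by the number of libraries bound) in each library (columns, EtOH left of the heavy line and TAM right). White cells hold no promoter peak of at least 7. EIF2D is filled in all 11 columns, EIF4A3 and EIF3L only in the 6 TAM columns, and EIF1AY, EIF2S3B, EIF3C, EIF3CL, EIF4E1B and EIF5AL1 in none.

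The eIF2 group had the highest mean shares of the 7 role groups in both treatments. Its 11 genes are those for eIF2 and its exchange factor eIF2B, with EIF2A and EIF2D, which are grouped here by name only. By the replicate rule 10 (90.9%, against 48.3% of all genes) were bound in TAM and 6 (54.5%, against 8.44%) in EtOH. The mean share bound was 36.4% ± 12.9 over the EtOH libraries (SD, n = 5) and 78.8% ± 7.42 over those in TAM (SD, n = 6). EIF2D (ENSG00000143486, chr1:206744620-206785818, minus strand), which encodes a non-canonical factor able to deliver tRNA to the small subunit and active in ribosome recycling, was the 1 member bound in 11 of 11 libraries, as were 0.489% of all genes. Its −log10 q was 29.3 and 15.4 in S100A8 EtOH and 12.3, 32.8 and 31.6 in S100A9 EtOH. In TAM it was 55.6, 51.2 and 28.9 for S100A8 and 58.9, 48.9 and 81.1 for S100A9. Apart from S100A8 TAM replicate 3, every TAM value was above every EtOH value. Its fold enrichment over input, 7.43 to 21.0, had a median percentile of 98.9 among the peaks of its library, and ranked by −log10 q among the promoters of all genes it stood at percentile 99.4 ± 0.857 over the EtOH (SD, n = 5) and 99.8 ± 0.436 over the TAM libraries (SD, n = 6).

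At least 4 of 5 EtOH libraries bound 5 members (8.93%), beside 2.25% of all genes, and 3 of them belong to the eIF2 group. EIF2B4 (ENSG00000115211, chr2:27587219-27593205), the delta subunit of eIF2B, was bound in S100A8 EtOH replicate 2 at −log10 q 10.4 but not in replicate 1, and in S100A9 EtOH at 26.3, 8.91 and 9.66. In TAM its values were 12.4, 17.3 and 30.2 for S100A8 and 44.0, 10.7 and 36.5 for S100A9, which overlap the EtOH range. EIF2B3 (ENSG00000070785, chr1:45316194-45452394), the gamma subunit, had 11.5 and 10.7 in S100A8 EtOH and 7.14 and 12.5 in S100A9 EtOH replicates 2 and 3, with no peak past the threshold in replicate 1. In TAM it had 20.3, 10.1 and 15.8 for S100A8 and 15.5, 26.2 and 17.6 for S100A9. All but S100A8 TAM replicate 2 were above the EtOH values. Ranked among the promoters of all genes, EIF2B3 was not higher in TAM. Its percentile was 94.3 ± 4.59 over the EtOH (SD, n = 5) and 87.8 ± 7.9 over the TAM libraries (SD, n = 6). The catalytic subunit gene EIF2B5 was bound in 3 EtOH and 6 TAM libraries, EIF2B1 in 2 and 6, and EIF2B2 in 0 and 4. Of the eIF2 subunit genes, EIF2S3, for the gamma subunit, was bound in 2 EtOH and 6 TAM libraries, EIF2S1, for the alpha subunit that the stress kinases phosphorylate, in 0 and 5, and EIF2S2, for the beta subunit, in 0 and 3.

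Of the 4 eIF2-alpha kinase genes 2 were bound by the replicate rule in TAM, a share near the 48.3% of all genes, and 0 in EtOH. EIF2AK4, for the amino acid sensor GCN2, was bound in 6 TAM libraries at −log10 q 9.31 to 23.9 and in 1 EtOH library. EIF2AK3, for the endoplasmic reticulum stress sensor PERK, was bound in 4 TAM and 0 EtOH libraries. EIF2AK2, for the double-stranded RNA sensor PKR, was bound in 2 TAM libraries and 1 EtOH library, and EIF2AK1, for the heme-regulated kinase, in 1 and 0.

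The 14 eIF3 genes ranged from bound in nearly every library to never bound. Of these, 10 (71.4%, against 48.3%) met the replicate rule in TAM and 3 (21.4%, against 8.44%) in EtOH, and the mean share was 18.6% ± 8.14 over the EtOH libraries (SD, n = 5) and 64.3% ± 7.82 over those in TAM (SD, n = 6). EIF3J (ENSG00000104131, chr15:44829323-44855227), a loosely attached subunit, was bound in S100A8 EtOH replicate 1 at −log10 q 9.73 but not in replicate 2, and in S100A9 EtOH at 12.5, 7.89 and 15.3. In TAM its values were 26.1, 21.3 and 26.4 for S100A8 and 19.3, 33.3 and 36.1 for S100A9, all above the EtOH values. Ranked among the promoters of all genes, EIF3J differed little, at percentile 94.5 ± 6.38 over the EtOH (SD, n = 5) and 96.7 ± 2.03 over the TAM libraries (SD, n = 6). EIF3L (ENSG00000100129, chr22:38244875-38285414) was bound in 0 EtOH libraries, at 8.15, 20.1 and 10.2 in S100A8 TAM and at 7.16, 8.86 and 10.2 in S100A9 TAM. Apart from S100A8 TAM replicate 2, these values are close to the threshold. In addition, 3 of the 5 EtOH libraries held a weaker EIF3L peak in the deposited lists, so part of the EIF3L contrast lies at the choice of q. EIF3E and EIF3H were bound in both S100A8 EtOH libraries and in 0 of 3 S100A9 EtOH libraries, a pattern of 1.22% of all genes, and in all 6 TAM libraries. At EIF3E, which has 20 annotated TSSs, the strongest peak lay at an upstream TSS opposite EMC2 in 3 of the 8 libraries that bound it. EIF3A, EIF3B and EIF3I, for core subunits, were bound in 2 TAM libraries each and in 0 EtOH libraries.

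The eIF4 genes for cap binding, unwinding and scaffolding were nearly all bound in TAM. By the replicate rule 11 of 12 (91.7%, against 48.3% of all genes) were bound in TAM and 1, EIF4E2, in EtOH (8.33%, against 8.44%), with a mean share of 16.7% ± 11.8 over the EtOH libraries (SD, n = 5) and 69.4% ± 6.8 over those in TAM (SD, n = 6). EIF4E2 (ENSG00000135930, chr2:233415369-233448354), for the cap-binding homologue 4EHP that can repress translation, had −log10 q 13.8 and 8.31 in S100A8 EtOH and 7.19 and 9.12 in S100A9 EtOH replicates 1 and 3. In TAM it had 13.0, 8.49 and 23.1 for S100A8 and 15.4, 26.3 and 17.5 for S100A9, and the treatments overlapped. EIF4A3 (ENSG00000141543, chr17:78108168-78120950) had 14.4, 13.2 and 23.9 in S100A8 TAM and 12.7, 14.6 and 12.1 in S100A9 TAM. EIF4E, for the cap-binding protein itself, had 11.7 and 25.9 in S100A8 TAM replicates 1 and 2, with no peak past the threshold in replicate 3, and 17.4, 9.99 and 13.2 in S100A9 TAM.

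EIF4A3 and EIF4E were the members with the sharpest split between treatments. EIF4A3 and EIF3L were the 2 members (3.57%) bound in 6 of 6 TAM and 0 of 5 EtOH libraries, against 2.83% of all genes. When peaks of any deposited q were counted, 44 members (78.6%) had a promoter peak in all 6 TAM libraries, against 38.8% of all genes, and 36 (64.3%) in at least 3 EtOH libraries, against 33.3%. EIF4A3 and EIF4E each had a promoter peak in 6 of 6 TAM libraries and in 0 of 5 EtOH libraries, a pattern of 1.23% of all genes, while 34 members (60.7%) had one in 6 of 6 TAM and at least 3 EtOH libraries, against 27.1%. For most members the deposited lists therefore held an EtOH peak, past the threshold or below it, and for EIF4A3 and EIF4E they held none. Among members with TAM peaks, EIF5A2 and EIF4E3 also had no EtOH promoter peak at any deposited q. Their deposited TAM peaks were in 5 and 3 libraries. EIF4A3 and EIF4E were picked out after their values were seen. Most EIF4E summits lay far from the TSS, 823 to 921 bp upstream in 4 libraries and 292 bp upstream in S100A9 TAM replicate 3.

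**Figure D4:**
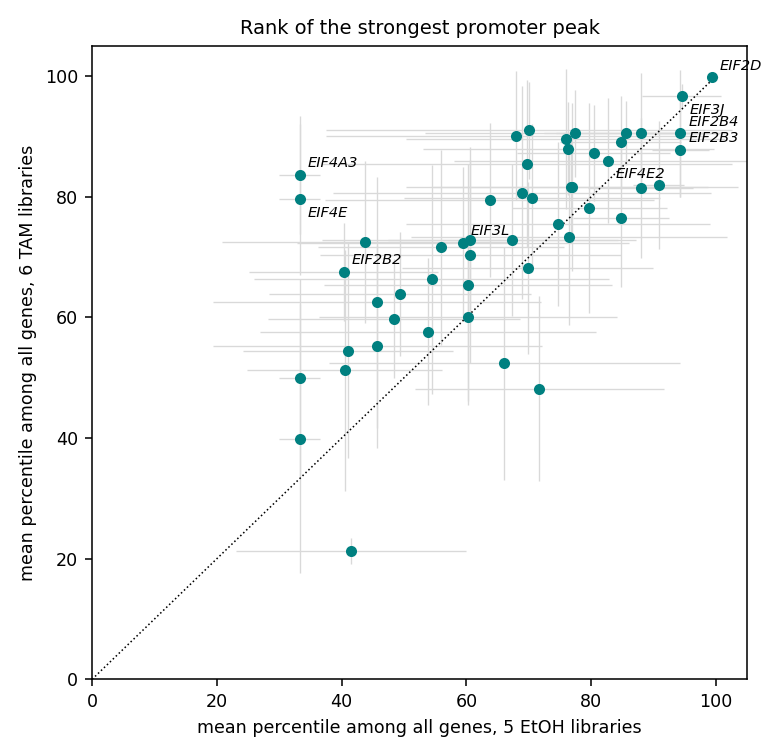
Mean percentile of the highest promoter −log10 q among all protein-coding genes in 5 EtOH (x axis) and 6 TAM (y axis) libraries, for members with a deposited promoter peak in at least 1 library. Bars are the SD and the dotted line marks equal ranks, and genes with no peak in a library share the lowest percentile. EIF4A3 (33.3 in EtOH, 83.6 in TAM) and EIF4E (33.3 and 79.6) lie farthest above the line, and EIF2D lies at the top right end of it.

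The helicase genes EIF4A1 and EIF4A2 were bound in 6 TAM libraries and 1 EtOH library each, EIF4H in 5 and 1, and EIF4B in 4 and 0. The scaffold genes EIF4G1 and EIF4G3 were bound in 3 TAM libraries and 1 EtOH library each, and EIF4G2, for a homologue without the eIF4E-binding site, in 4 and 1. All 4 genes for eIF4E-binding inhibitors met the replicate rule in TAM and 1, EIF4ENIF1, in EtOH, against 48.3% and 8.44% of all genes. The mean share of these 4 genes bound was 20.0% ± 20.9 over the EtOH libraries (SD, n = 5). Over the TAM libraries it was 66.7% ± 25.8 (SD, n = 6), so it varied widely between libraries. EIF4ENIF1, for the shuttling protein 4E-T, was bound in 6 TAM libraries at −log10 q 9.68 to 21.2 and in 2 EtOH libraries. EIF4EBP3 was bound in 5 TAM libraries and 1 EtOH library, EIF4EBP2 in 3 and 0, and EIF4EBP1 in 2 and 1.

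In the start codon scanning group, EIF1 and EIF1B, for eIF1 and its close homologue, were bound in all 6 TAM libraries and in 2 and 3 EtOH libraries. EIF1AD, a gene grouped here by its eIF1A-like domain, was bound in 5 TAM and 3 EtOH libraries, and EIF1AX, for eIF1A, in 2 and 0. Subunit joining, eIF5A and eIF6 had the lowest mean share of the role groups in TAM, 44.4% ± 8.61 (SD, n = 6), and 3 of its 6 genes, a share near the 48.3% of all genes, met the replicate rule in TAM. EIF5B, the GTPase of subunit joining, was bound in 6 TAM and 2 EtOH libraries with −log10 q up to 42.6, and EIF5, the GTPase activator for eIF2, in 5 and 1. EIF5A was bound in 1 TAM library, and EIF6, which keeps the large subunit from joining early, in 2. No test was made between the roles.

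Bound in 0 of 11 libraries were 6 members (10.7%), against 38.9% of all genes: EIF1AY, EIF2S3B, EIF3C, EIF3CL, EIF4E1B and EIF5AL1. All but EIF4E1B, which had a weak peak in 1 EtOH library, also had no promoter peak at any deposited q, 5 members beside 25.6% of all genes. EIF3C and EIF3CL are near-identical copies, EIF2S3B and EIF5AL1 are retrocopies of EIF2S3 and EIF5A, and EIF1AY lies on the Y chromosome. The lists were made from uniquely mapped reads, and the part of mappability in these zeros was not tested.

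Gene by gene, 48 of the 56 members (85.7%, beside 53.7% of all genes) were bound in at least 2 libraries and tested for TAM against EtOH. At an unadjusted p under 0.05, 9 members (18.8%) were bound more often in TAM and 0 in EtOH, against 20.9% and 0 of the 10647 genes tested: EIF2AK4, EIF2S1, EIF3D, EIF3F, EIF3L, EIF4A1, EIF4A2, EIF4A3 and EIF4E. After Benjamini-Hochberg adjustment over all tested genes 0 members and 0 genes passed, and the smallest adjusted p of the exact permutation test was 0.19. Member genes were thus called at about the rate of genes at large. Tested instead on the percentile of the highest promoter −log10 q, 9 members (16.1%) had an unadjusted p under 0.05, against 34.1% of all genes. After adjustment 8 (14.3%) passed, against 28.9%. Genes with no deposited promoter peak in any library share a tied percentile in each library and pass through that value alone. They were 25.6% of all genes and 8.93% of members, so the lower member shares say nothing about bound members. Of the 8, EIF4A3 and EIF4E were higher in TAM, with an EtOH percentile of 33.3 that is only the tied value of genes without a peak, so this repeats their pattern of 0 EtOH and 6 TAM libraries. The other 6 were the members with no peak past the threshold. For 5 of them the percentile moved only with the tied value, from 33.3 to 21.2, which is lower where more genes have peaks, and EIF4E1B also lost its single weak EtOH peak. The ninth, EIF2B2, had percentile 40.3 ± 15.2 over EtOH (SD, n = 5) and 67.6 ± 8.12 over TAM libraries (SD, n = 6) and did not pass after adjustment (adjusted exact permutation p = 0.117).

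At q at or below 1e-07, few member promoters were bound repeatedly for 1 protein and never for the other within a treatment. In TAM, EIF4E3, EIF4EBP1 and EIF5A2 were bound in at least 2 S100A8 and 0 S100A9 libraries, 5.36% of members beside 1.04% of all genes, and EIF3B in at least 2 S100A9 and 0 S100A8 libraries, 1.79% beside 3.26%. EIF4E3 had −log10 q 8.31 and 7.51 and EIF5A2 7.86 and 8.07, all near the threshold, while EIF4EBP1 had 18.1 and 12.6. The deposited lists held a weaker EIF4EBP1 promoter peak in the other TAM libraries, S100A9 included, and S100A9 EtOH replicate 3 bound it at 8.12. In EtOH, EIF2B1, EIF2S3 and EIF4ENIF1 were bound in 2 S100A9 libraries and 0 S100A8 libraries, a pattern of 1.69% of all genes. With peaks of any deposited q, EIF5A2 and EIF3B had a promoter peak in 5 TAM libraries and EIF4E3 in 3. EIF4ENIF1 had one in 5 EtOH libraries, and EIF2B1 and EIF2S3 in 4. The other protein thus also held a weaker peak at each of these genes except EIF4E3, where the count does not settle it. Single genes were not tested for a difference between the proteins.

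Member peaks sat where promoter peaks sat in general, at and just upstream of the TSS. In TAM the median distance of 220 member summits from the nearest TSS was 78.5 bp, and 82 bp over all genes, and 85.5% and 78.3% of summits were upstream. In EtOH the medians were 63.5 bp for 60 member summits and 84 bp for all genes, with 68.3% and 73.4% upstream. Median fold enrichment of member peaks was 9.01 in TAM and 8.28 in EtOH, at percentiles 66.8 and 49.4 of their libraries, beside 61.6 and 55.6 for promoter peaks of all genes. Between proteins in TAM, the summits of a member lay a median of 49.2 bp apart (44 members), and 53.5 bp over all genes. Between EtOH and TAM they lay 85.5 bp apart (29 members), and 59 bp over all genes. These positions were not tested.

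**Figure D5:**
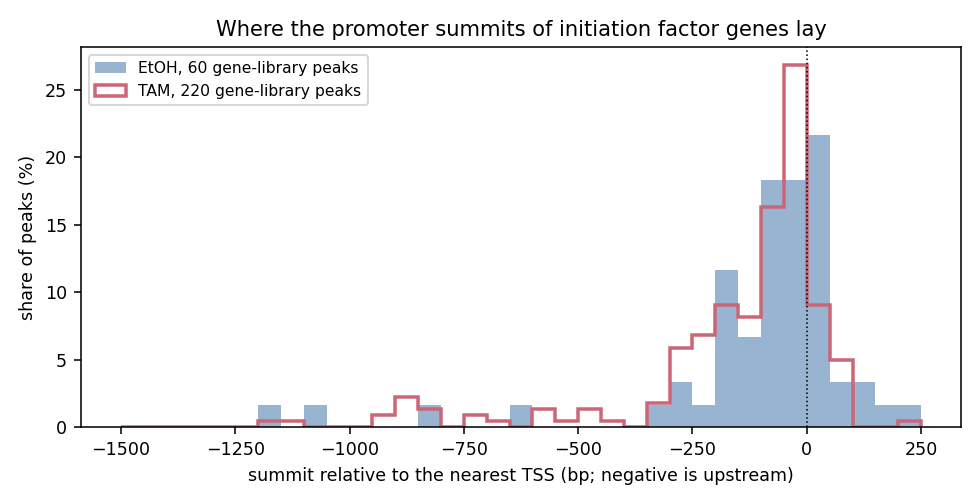
Share of member promoter peaks (y axis, %) by distance of the summit from the nearest TSS (x axis, bp, bins of 50 bp, negative upstream), for 60 EtOH peaks (filled) and 220 TAM peaks (line), a peak being the strongest of a gene in a library. Both treatments peak at the TSS, with the TAM median at -67.5 bp and the EtOH median at -48.5 bp, and a small group lies farther upstream.

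Peaks at 15 members also lay in the promoter window of a second protein-coding gene, nearly always one read in the opposite direction. These included EIF2B4 with SNX17, EIF2B1 with GTF2H3, EIF4E2 with TIGD1, EIF3L with ANKRD54, EIF3H with UTP23, EIF5B with TXNDC9 and EIF1AD with BANF1, in every library that bound them. The strongest peak was shared at 13 of 50 bound members, 26.0%, and at 23.0% of all bound genes. At these promoters a peak cannot be given to one gene or the other.

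Peaks inside the genes were rarer at initiation factors than at genes in general. A peak in the gene body, outside every promoter window, was found in at least 2 TAM replicates of one protein at 13 members (23.2%), against 33.6% of all genes, and in EtOH at 0 members, against 3.35%. EIF2D held 1 to 3 such peaks in each of the 6 TAM libraries and 0 in EtOH, EIF3I 1 to 3 in each TAM library and EIF4EBP1 1 or 2, with 1 also in S100A8 EtOH replicate 1. EIF3A and EIF3I met the rule in the gene body but not at the promoter. Gene length, which differs among genes and sets the room for such peaks, was not adjusted for.

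Other genes of the translation pathway had mean shares bound a little above those of the initiation factors. Of 33 genes for elongation, termination, poly(A)-tail binding and regulation of initiation, 28 were bound by the replicate rule in TAM and 9 in EtOH. For all genes the rule gave 48.3% and 8.44%. Mean shares of the 33 genes were 25.5% ± 10.2 over EtOH (SD, n = 5) and 72.7% ± 5.07 over TAM libraries (SD, n = 6). An unadjusted exact permutation p under 0.05 was found for 9 of the 28 tested, all higher in TAM, and 0 passed after adjustment. Beside this stand 9 of the 48 tested members and 20.9% of all tested genes. EEF1A1, the main tRNA-delivering elongation factor, PABPC1, the poly(A)-binding protein, and DDX3X, a helicase of initiation, were each bound in 6 TAM libraries and 1 EtOH library. MKNK2, a kinase for eIF4E, and RPS6KB2, an S6 kinase, were bound in 6 TAM and 0 EtOH libraries, and MTOR in 4 and 1. LARP1, which represses mRNAs with a 5′ terminal oligopyrimidine tract, was bound in 6 TAM and 5 EtOH libraries, the count also seen at EIF2D. Cytosolic ribosomal protein genes (87) were bound at 18.4% ± 3.72 over EtOH libraries (SD, n = 5) and 70.3% ± 8.83 over TAM libraries (SD, n = 6), and proteasome subunit genes (48) at 18.8% ± 3.61 and 68.8% ± 11.2. Both lists lay within a few points of the initiation factors, and the high shares were therefore not shown to be particular to initiation.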

How the data were processed

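Flag ChIP libraries were aligned by the authors to hg19 with Bowtie2, uniquely mapped reads were kept, and MACS2 called peaks in each library against its own input (versions not given in the sources used here). The deposited peak lists give, per peak, fold enrichment over input at the summit (a ratio), −log10 p and −log10 q, an integer score derived from these, and the summit; they reach q = 0.05. Positions are 0-based in the lists and 1-based here. The Pol II and input libraries were not analysed here.

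TSSs came from protein-coding transcripts of GENCODE release 44 lifted to hg19 (78702 TSSs), and sequences from the GRCh37 genome; 0 of 559320 peaks ran past a chromosome end. The members, role groups and other lists were chosen with earlier results of these data known. Any member could be named; values in every library were given for those bound in at least 4 of 5 EtOH libraries, or in all 6 TAM and no EtOH library, and sequences for 6 of them by number of libraries bound and then mean −log10 q in TAM, none on chromosome 8. Values of EIF4E and EIF4EBP1 were added after they were seen. Unlike the study, a summit was given to every gene whose TSS was in range. Shares were compared by exact permutation of libraries, two-sided by doubling the smaller tail, and single genes by the same test with Benjamini-Hochberg adjustment over 10647 genes. Same-numbered EtOH and TAM libraries did not deviate together (correlations over genes -0.0162 to 0.0117, 5 pairs) and were not paired. Python 3.11.15, pandas 2.3.3 and NumPy 2.4.6 were used. Depth per library is unknown from the lists, so no counting interval is given.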

Additional observations from a re-analysis of the deposited data

How the results depend on the processing

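Of the alternatives, the equal number of peaks changed most. With the 1885 strongest peaks of each library the share of members bound, TAM minus EtOH, was -1.04 points over both proteins, -3.57 points for S100A9 and 1.49 points for S100A8, S100A9 minus S100A8 was -4.17 points in TAM and 0.893 in EtOH, the log2 ratio to all genes was 0.134, and 9 members were bound by the replicate rule in TAM and 6 in EtOH. The list is shorter by construction, which lowers both counts, and a fixed number of peaks removes any gain spread over all sites. The EtOH count of 13 became 37 with every deposited peak and 4 at q at or below 1e-10. The log2 ratio of the member share to that of all genes passed the exact permutation test at q at or below 1e-10 (-0.347), with summits within 250 bp (-0.401), with the 5′ end of the gene only (-0.492) and without S100A8 EtOH replicate 1, but was -0.197 and did not pass with the nearest TSS only. Leaving out each library in turn gave -0.427 to -0.186 for this ratio and -5.95 to 2.98 points for S100A9 minus S100A8 in EtOH, which turned sign without S100A8 EtOH replicate 2 and without S100A9 EtOH replicate 2 (0.893). The TAM minus EtOH difference over both proteins was 41.7 to 46.1 points when each library was left out, but 28.3 with every deposited peak (18.5 for S100A8). The median summit distance was 57.5 bp when only summits within 250 bp counted, which removes the far ones. The rank of the highest promoter peak gave 8 members past the adjusted threshold in place of 0, of which 6 have no promoter peak past q at or below 1e-07. The causes of the other changes were not tested. For 120 recomputed values the sign did not turn and the call did not change, 1 of them a difference of 0 (S100A9 minus S100A8 in TAM without S100A9 TAM replicate 3).

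With the replicate number as a block the difference was 43.5 points (exact permutation p = 0.0625, the smallest that swaps within 5 pairs allow). This block leaves out S100A8 TAM replicate 3, which has no EtOH partner. Without that library and without the block the difference was also 43.5 points (exact permutation p = 0.0167). The blocked test could not give a p under 0.05 whatever the values. The libraries share only a number, and the block changed no other call. Without read totals, a gene with no peak may be unbound or too shallowly read.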
